A study of Mus musculus with 12 samples.

Results

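Peroxisome biogenesis and oxidation were followed through 27 genes: 12 peroxins that build the organelle, 3 ABC transporters of its D subfamily, and 12 enzymes of peroxisomal fatty acid and hydrogen peroxide metabolism. The genes were taken by name from the 39423 genes of the deposited table, all 27 were found, and 26 had enough reads to be tested in each comparison. They were chosen with earlier results of these data known. Shares of them set beside all genes therefore describe these genes and are not an independent test. The cells were 3T3-L1, a mouse preadipocyte line that turns into fat cells when given MDI, the mixture of methylisobutylxanthine, dexamethasone and insulin. Control cells (siCtrl, called NC in the labels) and cells given siRNA against Prmt1 (siPRMT1, called KD) were collected after 24 h or 72 h of MDI, with 3 libraries for each of the 4 conditions. All 12 libraries came from MDI-treated cells of the same line, so an undifferentiated state is not among them. The knockdown is transient and partial, in a bulk culture rather than a clone, and the labels do not say whether the 3 libraries of a group were separate cultures, so p-values measure only the spread between these libraries.

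Peroxisomes are small organelles bounded by a single membrane that shorten very-long-chain and branched fatty acids, remove hydrogen peroxide through catalase and start the synthesis of ether lipids. Their enzymes are made in the cytosol, bound there by the receptors PEX5 and PEX7, passed through a membrane complex of docking and RING proteins, and released inside, after which the receptor is pulled back out with the help of PEX6 and PEX26. PEX3, PEX16 and PEX19 place proteins into the membrane, and PEX11 proteins elongate it before division. Peroxisomes multiply when preadipocytes become fat cells, and several of their genes are textbook targets of the PPAR nuclear receptors, which bind paired half-sites of DNA together with RXR.

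The bases before the transcription start of 3 of the genes are shown as examples. They are among 9 genes that were called higher in siCtrl with induction, as defined below, and fell with the knockdown at 72 h. The 3 are Pex11a, the peroxin with the largest rise, Pex16, the next peroxin in size of rise, and Cat. Scp2, another of the 9, rose more than Cat and is not shown. Each run is the 250 bases before the RefSeq start on GRCm38.p6, read 5′ to 3′ on the gene's own strand, and capitals mark GGGCGG, the core of the GC box, and AGGTCA, the half-site bound by nuclear receptors, in either orientation. Pex16 has a second RefSeq start, and the 250 bases before it (chr2:92374989-92375238) hold neither sequence and are not shown.
Pex11a (chr7:79743132-79743381, minus strand): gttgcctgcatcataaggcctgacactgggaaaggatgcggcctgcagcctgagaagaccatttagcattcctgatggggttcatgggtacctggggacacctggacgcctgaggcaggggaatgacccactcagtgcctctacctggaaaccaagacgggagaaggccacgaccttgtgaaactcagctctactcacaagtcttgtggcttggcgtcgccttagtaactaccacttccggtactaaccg
Pex16 (chr2:92374426-92374675, plus strand): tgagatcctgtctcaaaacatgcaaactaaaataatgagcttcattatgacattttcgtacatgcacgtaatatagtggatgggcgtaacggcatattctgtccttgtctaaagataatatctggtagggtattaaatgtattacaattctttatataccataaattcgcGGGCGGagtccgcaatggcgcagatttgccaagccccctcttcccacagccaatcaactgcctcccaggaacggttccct
Cat (chr2:103485154-103485403, minus strand): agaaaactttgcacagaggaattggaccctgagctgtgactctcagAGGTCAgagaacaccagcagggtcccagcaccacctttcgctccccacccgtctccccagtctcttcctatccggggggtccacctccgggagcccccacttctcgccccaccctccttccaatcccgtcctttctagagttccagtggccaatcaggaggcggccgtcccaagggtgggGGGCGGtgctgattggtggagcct

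RefSeq windows from 250 bases before to 50 bases after the start were at hand for 21 of the 27 genes. GGGCGG, searched on both strands, stood in the windows of 17 of these 21 genes (81.0%), of 38.2% of the 27025 genes with a window, and of 69.2% of the 9358 genes with a window and a mean of at least 20 counts. The Pex11a match is not wholly within the bases shown. AGGTCA was in 3 of 21 (Cat, Phyh and Scp2), or 14.3%, against 18.1% of all genes with a window and 14.6% of those with a mean of at least 20 counts. The Scp2 window is that of a start inside the gene. Its bases before the start (chr4:108118548-108118797) lie within the gene's span (chr4:108043830-108144971, minus strand). A pair of AGGNCA spaced by 1 base on either strand, the spacing that PPAR and RXR prefer and a pattern that can contain AGGTCA, was in 0 of 21 windows in 0.451% of all and in 0.278% of the genes with at least 20 counts. CCAAT was in 8 of 21 (38.1%), against 41.1% of all genes with a window and 43.3% of those with a mean of at least 20 counts. TTGCNNAA, a form of the C/EBP site, was in 5 (23.8%), against 12.2% and 9.91%. TATAAA was in 3 (14.3%), a share below that of all genes (15.7%) and above that of the genes with at least 20 counts (8.5%). These are matches of letters in a short window and say nothing of binding or of sites elsewhere.

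The 12 libraries held 15116462 to 42357137 counted reads. Prmt1, the target of the siRNA, was at 82.9, 83.4 and 91.3 FPKM (the authors' read counts scaled for gene length and library total) in siCtrl and 43.8, 38.6 and 41.4 in siPRMT1 at 24 h. At 72 h it was at 111, 120.4 and 140.2 FPKM in siCtrl and 62.0, 71.7 and 68.5 in siPRMT1. The groups were apart at both times, with log2 fold changes of -1.11 (adjusted p = 9.8e-04) and -0.88 (adjusted p = 1.2e-05) in edgeR's quasi-likelihood test with Benjamini-Hochberg adjustment over all genes tested, which is the test behind every adjusted p below. One library stood apart from the others: siCtrl replicate 3 at 24 h had a root mean square log2 deviation from its group mean of 0.287, against 0.147 to 0.225 in the other 11. The level of fat cell markers (Adipoq, Fabp4, Plin1, Cidec, Lipe, Pparg and Cebpa, summed) was 69.7 to 89.0 FPKM in siCtrl at 24 h and 2195 to 2411 at 72 h. Ptprc, a marker of all white blood cells, and Myod1, a defining gene of muscle, were listed at 0 FPKM in all 12 libraries, and none of the 4 liver markers reached the count filter in any comparison. Some other macrophage and muscle markers had reads. In siCtrl the 5 macrophage markers (Ptprc, Adgre1, Cd68, Csf1r and Itgam) summed to 1.76 to 1.89 FPKM at 24 h and 2.33 to 2.55 at 72 h. The 4 muscle markers (Myod1, Myog, Ckm and Acta1) summed to 0.09 to 0.15 and to 4 to 6.8, through Acta1.

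**Figure D1:**
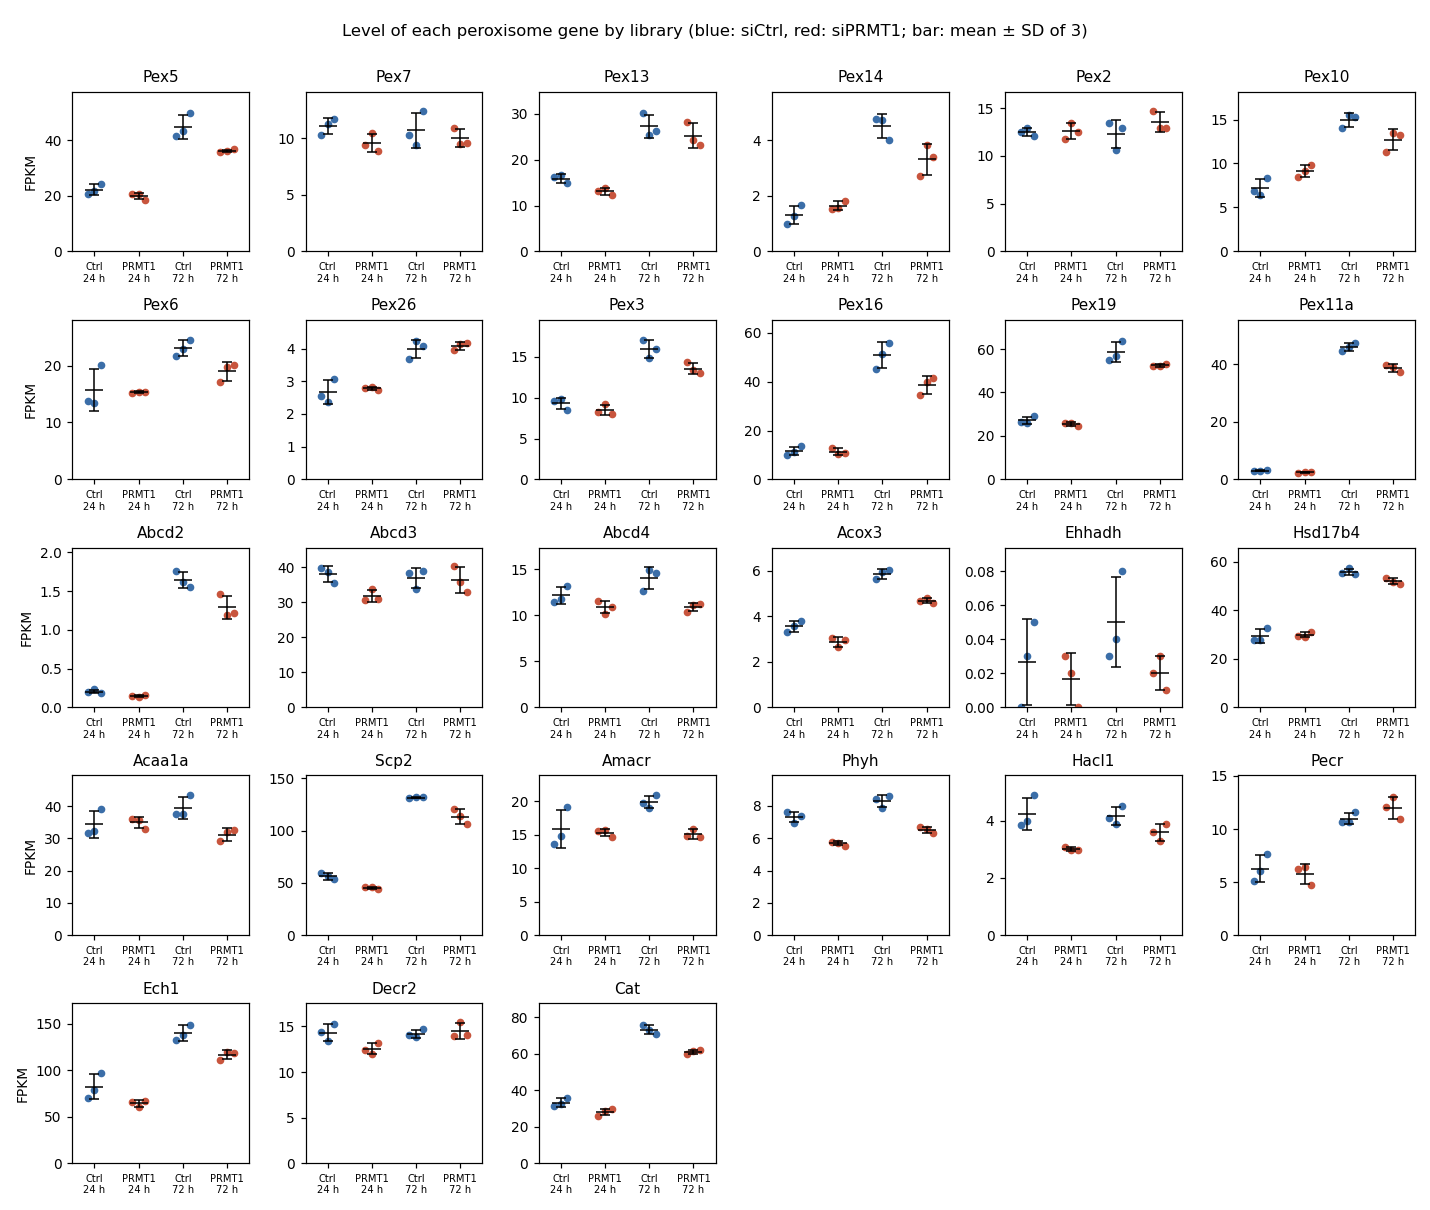
Deposited FPKM of the 27 genes, 1 panel per gene with its own vertical axis from 0, in the 12 libraries (points) of the 4 conditions along the horizontal axis, with the mean and SD of 3 libraries. Pex11a, Abcd2 and Pex16 show the steepest rise from 24 h to 72 h, and Ehhadh stays at or under 0.08 FPKM.

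The first question was how these genes move as control cells differentiate. From 24 h to 72 h of MDI, 16 of the 26 tested genes (61.5%) were called higher in siCtrl, that is, with an adjusted p under 0.05 and a log2 fold change over 0.5, where 22.7% of all 13829 genes tested were called higher. None was called lower, against 20.4% of all genes, with 0 also lower at an unadjusted p under 0.05 by edgeR and 0 called lower by DESeq2. The median log2 fold change of the 26 was 0.70, and that of all genes tested was -0.00. The rise took in 9 of the 12 peroxins, 1 of the 3 transporters and 6 of the 11 tested enzymes. Without siCtrl replicate 3 at 24 h, the library that stood apart, 17 were called higher, where 3435 of all 14175 genes tested were. Over the same interval all 7 fat cell markers rose and all 7 preadipocyte or fibroblast markers (Pdgfra, Pdgfrb, Thy1, Col1a1, Col1a2, Col3a1 and Cd34) fell, from a summed level of 1481 to 1623 FPKM to one of 682 to 730. Krt8 and Krt18 (epithelial), Acta1 (muscle), Pecam1 and Cdh5 (endothelial) and Csf1r and Cd68 (macrophage) also rose at the adjusted p, and Itgam (macrophage) fell. Epithelial markers summed to 0 to 0.05 FPKM at 24 h and 11 to 11.4 at 72 h, and endothelial ones to 0.12 to 0.21 and 0.79 to 0.88. The part of all these markers in the peroxisomal rise was not tested. Fewer cells of a type and less RNA per cell cannot be told apart in these bulk libraries.

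Pex11a, whose product elongates the peroxisomal membrane before it divides, was at 3.05, 2.84 and 3.16 FPKM in the siCtrl libraries at 24 h and at 44.5, 46.1 and 47.2 at 72 h. Each late library was far above each early one, a log2 fold change of 3.86 ± 0.10 (SE, adjusted p = 3.0e-09 by edgeR). The gene lies at chr7:79735957-79743131 on the minus strand of GRCm38, 3052 bases from Plin1 (chr7:79721164-79732904), which codes for perilipin, the main coat protein of the fat cell's lipid droplet. Plin1 went from 0.43, 0.70 and 1.07 FPKM to 175.4, 196 and 179 over the same interval. On the other side Wdr93 (chr7:79742948-79785952, plus strand) overlaps Pex11a by 184 bases, and the Pex11a bases shown above lie within it. Wdr93 went from 0.24, 0.33 and 0.20 FPKM to 1.54, 1.70 and 1.82.

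Abcd2, a transporter of very-long-chain and unsaturated acyl-CoA, was at 0.20, 0.23 and 0.18 FPKM in siCtrl at 24 h and at 1.76, 1.62 and 1.55 at 72 h. The groups did not overlap (log2 fold change 2.94 ± 0.16, adjusted p = 2.4e-07 by edgeR), although the early level rested on 24 to 55 reads a library. Pex16, which helps bring proteins into the membrane, was at 10.2, 11.1 and 13.6 FPKM at 24 h and at 45.3, 51.5 and 55.8 at 72 h. It was higher in all late libraries (log2 fold change 2.07 ± 0.13, adjusted p = 8.6e-07 by edgeR).

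The other peroxins called higher rose by less. The docking protein gene Pex14 rose by 1.73 ± 0.20 on the log2 scale, Pex19, the chaperone for membrane proteins, by 1.04 ± 0.09, and Pex10, a RING ubiquitin ligase of the import channel, by 0.98 ± 0.13. Pex5, the main import receptor, rose by 0.94 ± 0.10, from 22.3 ± 1.86 to 44.9 ± 4.39 FPKM (mean ± SD, n = 3). Pex13, the partner of PEX14 in docking, and Pex3, the membrane anchor of PEX19, each rose by 0.71, and Pex26, the membrane anchor of PEX6, by 0.51 ± 0.13. Pex6, an ATPase of receptor recycling, rose by 0.48 ± 0.15 and so passed the adjusted p (0.021 by edgeR) and not the fold threshold. Pex7, the receptor for the second class of import signals, and Pex2, another RING ligase, had log2 fold changes of -0.12 ± 0.13 and -0.09 ± 0.11 and did not pass.

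Among the enzymes, Scp2 rose most. This gene codes for a thiolase of branched-chain beta-oxidation and for a lipid carrier from 2 promoters, which gene-level counts do not separate. It was at 56.4 ± 3.21 FPKM at 24 h and 131.7 ± 0.44 at 72 h (log2 fold change 1.15 ± 0.07). Cat, which codes for catalase, went from 33.3 ± 2.29 to 73.2 ± 2.47 FPKM (1.07 ± 0.08), and Hsd17b4, the bifunctional enzyme of the middle steps of beta-oxidation, from 29.4 ± 2.83 to 55.9 ± 1.24 (0.86 ± 0.09).

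Pecr, a trans-2-enoyl-CoA reductase of phytol breakdown, rose by 0.75 ± 0.16 on the log2 scale, Ech1, an isomerase for unsaturated fatty acids, by 0.70 ± 0.12, and Acox3, an oxidase for branched-chain substrates, by 0.66 ± 0.10. The alpha-oxidation genes did not share the rise: Phyh, phytanoyl-CoA hydroxylase, had a log2 fold change of 0.11 ± 0.11 and Hacl1, the lyase that removes the carbon, of -0.09 ± 0.14. Acaa1a (0.14 ± 0.11), the thiolase for straight chains, Amacr (0.26 ± 0.13), the racemase that readies branched chains, and Decr2 (-0.08 ± 0.10), a reductase for unsaturated chains, did not pass either. Nor did the transporters Abcd3 (-0.11 ± 0.09), which takes in branched-chain acyl-CoA, and Abcd4 (0.14 ± 0.11), a relative known mainly for cobalamin export from lysosomes. Per length, Ech1 (82.1 ± 13.4 FPKM) and Scp2 were the highest of the 27 in siCtrl at 24 h, and Ech1 (139.8 ± 8.54 FPKM) and Scp2 again at 72 h.

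Ehhadh, the bifunctional enzyme abundant in liver, was not tested in any comparison. It had 0 to 6 reads a library in all 12, no more than 0.08 FPKM, and its 2 libraries with 0 reads allow up to 0.0235 and 0.0411 FPKM (3 counts a library, counting error only).

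In siPRMT1 cells the same interval gave a like picture. From 24 h to 72 h, 15 of 26 genes (57.7%) were called higher, against 19% of the 14224 genes tested, and none lower, against 17.4%. At an unadjusted p under 0.05 and past the fold threshold none was lower, and DESeq2 called none lower. All 15 were also called higher in siCtrl, and Pex10 was called in siCtrl alone: its log2 fold change was 0.98 ± 0.13 there and 0.46 ± 0.09 in siPRMT1. Pex11a rose by 3.94 ± 0.08 on the log2 scale, from 2.49 ± 0.16 to 38.7 ± 1.29 FPKM, Abcd2 by 3.11 ± 0.16 and Pex16 by 1.75 ± 0.09. Acaa1a fell by 0.18 ± 0.07 (adjusted p = 0.036 by edgeR), 1 of 26 that fell, against 31.2% of all genes. It passed in 2 of 6 fits that left out a library and in 5 of 8 other settings.

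**Figure D2:**
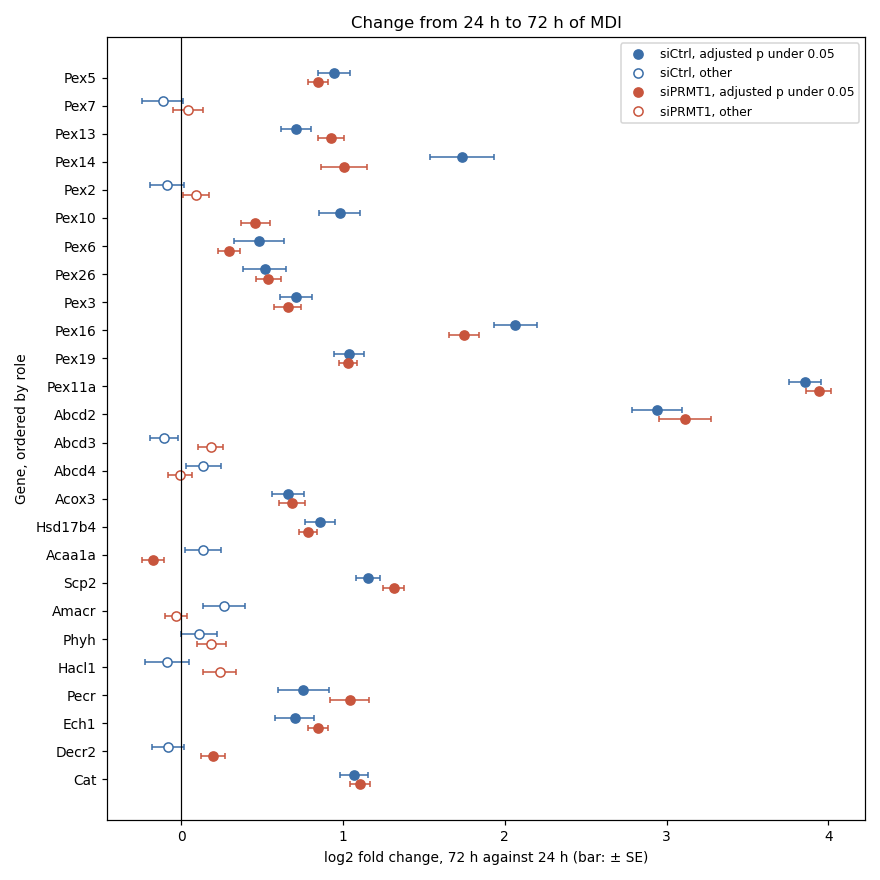
Log2 fold change from 24 h to 72 h (horizontal axis, bars ± SE) of the 26 tested genes, ordered by role along the vertical axis, in siCtrl (blue) and siPRMT1 (red), filled where the adjusted p was under 0.05. Pex11a (3.86 and 3.94), Abcd2 and Pex16 lie farthest to the right in both.

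The knockdown comparison at 72 h asked whether the level reached was lower without full Prmt1. In siPRMT1 cells 14 of the 26 genes (53.8%) were lower than in siCtrl at an adjusted p under 0.05, against 8.94% of the 14039 genes tested, and 0 were higher, against 7.54%. These shares are descriptive, since the genes were chosen with earlier results known and all genes were not matched to them for read number. The falls were small, from 14.1% to 26.1% of the siCtrl level, so that none passed the fold threshold too, where 3.8% of all genes were called lower and 2.84% higher. The largest was that of Pex14 (log2 fold change -0.44), which passed in 2 of 6 fits that left out a library. With the second Pex14 entry described below added, its log2 fold change was -0.28 ± 0.08. By edgeR none of the 26 was higher at an unadjusted p under 0.05 either, and DESeq2 found 13 that fell, 0 that rose and 0 called. The log2 fold change was negative in 22 of 26, with a median of -0.25, where that of all genes tested was 0.01. The 14 were 5 of 12 peroxins, 2 of 3 transporters and 7 of 11 enzymes. Summed over the 27 genes, the level was 849 to 904 FPKM in the siCtrl libraries and 739 to 755 in siPRMT1.

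Values in each library follow for some of the 14, chosen after their values were seen. Pex16 was at 34.4, 39.9 and 41.6 FPKM in siPRMT1, all under the lowest siCtrl library at 45.3 (log2 fold change -0.41 ± 0.09, adjusted p = 0.0063 by edgeR). Pex11a was at 39.7, 39.1 and 37.2 FPKM, also under the 3 siCtrl libraries (-0.25 ± 0.07, adjusted p = 0.019). Plin1, its neighbour, was at 103.7, 116 and 119 FPKM in siPRMT1 and fell by 0.71 ± 0.08 on the log2 scale. Both genes of the pair were thus lower with the knockdown, Plin1 by the larger log2 value. The import receptor Pex5 was at 41.5, 43.4 and 49.9 FPKM in siCtrl and at 35.9, 36.2 and 36.8 in siPRMT1, with no overlap (-0.32 ± 0.08, adjusted p = 0.010 by edgeR). Pex6 fell by 0.29 ± 0.08 on the log2 scale and Pex14 by 0.44 ± 0.14.

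Of the transporters, Abcd2 was at 1.46, 1.19 and 1.22 FPKM in siPRMT1, under all 3 siCtrl libraries (log2 fold change -0.36 ± 0.12, adjusted p = 0.046 by edgeR). The fall of Abcd2 passed in only 1 of 6 fits that left out a library, and not with DESeq2 (adjusted p = 0.069). Abcd4 was at 12.7, 14.9 and 14.6 FPKM in siCtrl and at 10.4, 11.1 and 11.2 in siPRMT1. Its groups did not overlap (-0.37 ± 0.09, adjusted p = 0.0089 by edgeR). Abcd3, the most abundant transporter at 37.1 ± 2.84 FPKM in siCtrl and 36.4 ± 3.63 in siPRMT1, had overlapping groups and a log2 fold change of -0.03 ± 0.08.

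Amacr had the smallest p of the 26. It was at 19.8, 19.1 and 20.9 FPKM in siCtrl and at 14.8, 15.9 and 14.6 in siPRMT1, and the groups were apart (log2 fold change -0.41 ± 0.08, adjusted p = 0.0021 by edgeR). Acox3, the oxidase that acts on the same branched chains, was at 5.63, 5.95 and 6.05 FPKM in siCtrl and at 4.66, 4.79 and 4.57 in siPRMT1 (-0.34 ± 0.08), without overlap. Scp2, the thiolase of that route, was at 131, 132 and 132 FPKM in siCtrl and at 121, 114 and 106 in siPRMT1 (-0.22 ± 0.07), again without overlap. The straight-chain thiolase Acaa1a was at 37.6, 37.6 and 43.5 FPKM in siCtrl and at 29.1, 32.0 and 32.7 in siPRMT1 (-0.35 ± 0.08), lower in each siPRMT1 library than in any siCtrl one.

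Catalase mRNA was at 75.8, 72.9 and 70.9 FPKM in siCtrl and at 59.7, 61.4 and 62.0 in siPRMT1. The groups were apart (log2 fold change -0.27 ± 0.06, adjusted p = 0.010 by edgeR). Phyh, the first enzyme of alpha-oxidation, was at 8.41, 7.90 and 8.61 FPKM in siCtrl and at 6.67, 6.60 and 6.33 in siPRMT1 (-0.36 ± 0.10), and Ech1 fell by 0.27 ± 0.07 on the log2 scale. The 12 genes that did not pass had log2 fold changes from -0.24 (Pex3 and Pex10) to 0.13 (Pex2). The values above 0 were those of Pex2 (0.13 ± 0.09), Pecr (0.12 ± 0.10), Pex26 (0.03 ± 0.09) and Decr2 (0.02 ± 0.08).

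By role, the summed level of the 6 beta-oxidation genes was 249.5 to 257.5 FPKM in siCtrl and 208.9 to 222.5 in siPRMT1, and that of the 3 genes of membrane protein insertion was 117.4 to 135.5 and 100.8 to 107.8. Both were lower in every siPRMT1 library than in any siCtrl one. Scp2 alone, at 131.2 to 132 FPKM in siCtrl, was a large part of the beta-oxidation sum. Also apart were the import receptors (51.71 to 62.25 against 45.68 to 46.75 FPKM) and receptor recycling (25.4 to 28.5 against 21.0 to 24.3). So were the genes for unsaturated fatty acids (146.4 to 163.8 against 125.1 to 135.5). Alpha-oxidation and phytol overlapped (22.4 to 24.7 against 21.2 to 22.9). The 4 docking and translocation genes summed to 56.4 to 62.5 FPKM in siCtrl and 52.8 to 57.0 in siPRMT1, and the 3 transporters to 50.3 to 55.1 and 45.5 to 52.1, so that these ranges overlapped. The docking sum holds only the analysed entry of Pex14, without the second entry described below, which has most of its reads. That second entry was at 24.1, 24.4 and 23.6 FPKM in siCtrl and 18.6, 20.8 and 21.4 in siPRMT1. The docking overlap therefore need not hold with both entries summed.

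Of the 14 falls, 5 passed in each of the 6 fits that left out 1 library: Pex16, Abcd4, Acox3, Acaa1a and Amacr. The count was 6 without siPRMT1 replicate 2, 7 without siCtrl replicate 3, 8 without siCtrl replicate 2 and 9 without siPRMT1 replicate 3, where the share of all genes that fell was 5.51%, 7.1%, 5.56% and 8.17%.

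Cell markers moved in the same comparison. Of 7 fat cell markers, 6 fell at 72 h and their summed level was 2195 to 2411 FPKM in siCtrl and 1751 to 1893 in siPRMT1. Of 7 preadipocyte or fibroblast markers, 4 rose, with a summed level of 682 to 730 FPKM in siCtrl and 858 to 968 in siPRMT1. The part of these markers in the peroxisomal result was not tested. Krt8 and Krt18, counted as epithelial markers, also fell, and the 4 genes of that list summed to 11 to 11.4 FPKM in siCtrl and 6.36 to 6.64 in siPRMT1, with the part of this too not tested. Macrophage markers summed to 2.33 to 2.55 FPKM in siCtrl and 2.29 to 2.53 in siPRMT1, with 0 of 3 tested past the adjusted p. Summed levels were 4 to 6.8 against 5.03 to 5.94 FPKM for muscle, 0.79 to 0.88 against 0.58 to 0.68 for endothelium, with Cdh5 lower, and 0.22 to 0.47 against 0.18 to 0.43 for liver.

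At 24 h the knockdown effect was seen in fewer genes. Of 26 tested, 4 fell (15.4%), against 4.38% of the 13689 genes tested, and 0 rose, against 3.22%. Of these 1 was called lower, against 1.61% of all genes, and 0 were called higher, against 1.95%. By edgeR, 14 had an unadjusted p under 0.05 with a lower level and 1, Pex10, with a higher one, none of them called higher. The share of all genes at an unadjusted p was not counted in any comparison, so these counts cannot be set against all genes. DESeq2 found 8 that fell, against 6.59% of all genes, 0 that rose and 0 called higher. The log2 fold change was negative in 23 of 26, with a median of -0.21 beside 0.01 for all genes tested. With library totals alone as the scale the negative values were 20 of 26 and 1 gene fell.

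Hacl1, the 2-hydroxyacyl-CoA lyase of alpha-oxidation, was the gene called lower. It was at 3.85, 3.98 and 4.89 FPKM in siCtrl at 24 h and at 3.09, 2.98 and 2.99 in siPRMT1, with the groups apart (log2 fold change -0.53 ± 0.12, adjusted p = 0.032 by edgeR). At 72 h it was at 4.09, 3.89 and 4.51 FPKM in siCtrl and 3.59, 3.29 and 3.90 in siPRMT1, where the groups overlapped (-0.22 ± 0.11). Phyh, which acts before it in the same pathway, fell by 0.42 ± 0.10 on the log2 scale at 24 h, from 7.32 ± 0.33 to 5.68 ± 0.13 FPKM. Scp2 fell by 0.37 ± 0.07, from 56.4 ± 3.21 to 45.3 ± 0.93 FPKM, and Abcd3 by 0.31 ± 0.08, from 38.04 ± 2.25 to 31.8 ± 1.69 FPKM. Phyh and Scp2 were the 2 genes that fell at both times. None of the 12 peroxins passed at 24 h, and their log2 fold changes ran from -0.33 (Pex11a, adjusted p = 0.094 by edgeR) to 0.30 (Pex14 and Pex10), with 9 of 12 below 0. The 11 tested enzymes were all below 0, from -0.53 to -0.02, in this fit.

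The count at 24 h rested on single libraries. Without siCtrl replicate 3, the library that stood apart, 10 genes fell and Pex10 rose, 17 of 26 log2 fold changes were negative, and 15% of all genes fell. Without siCtrl replicate 1 it was 2 genes, and without siCtrl replicate 2 or any 1 of the siPRMT1 libraries it was 0, with shares of all genes from 0.508% to 2.08%. Fat cell markers summed to 69.7 to 89.0 FPKM in siCtrl and 47.8 to 56.5 in siPRMT1 at this time, with 3 of 6 tested lower, and 2 of 7 preadipocyte or fibroblast markers were lower too (1481 to 1623 against 1395 to 1497 FPKM). Macrophage markers summed to 1.76 to 1.89 FPKM in siCtrl and 2.45 to 2.86 in siPRMT1, with 0 of 2 tested past the adjusted p. The part of these markers in the result was not tested.

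**Figure D3:**
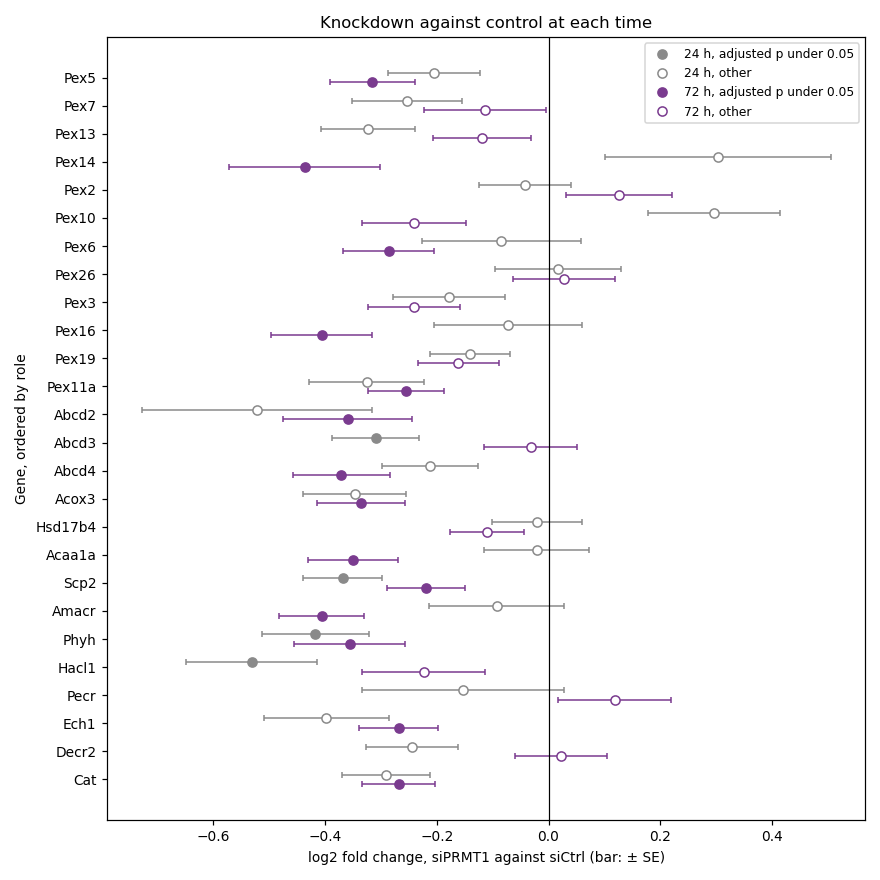
Log2 fold change of siPRMT1 against siCtrl (horizontal axis, bars ± SE) at 24 h (grey) and 72 h (purple) for the 26 tested genes, ordered by role along the vertical axis, filled where the adjusted p was under 0.05. At 72 h 14 points are filled, all left of 0, and at 24 h 4 are.

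The last comparison asked whether the knockdown effect differed between the times. In the model of all 12 libraries 1 of 26 genes passed, against 12.3% of the 14612 genes tested. It was Pex10, at 6.92, 6.41 and 8.34 FPKM in siCtrl and 8.45, 9.17 and 9.87 in siPRMT1 at 24 h. At 72 h it was at 14.02, 15.5 and 15.3 FPKM in siCtrl and 11.3, 13.5 and 13.2 in siPRMT1. All siPRMT1 libraries were thus above the siCtrl libraries at the early time and below them at the late time. Neither effect passed on its own (log2 fold changes 0.30 ± 0.12 and -0.24 ± 0.09, adjusted p = 0.16 and 0.092 by edgeR), while their difference was -0.52 ± 0.16 (adjusted p = 0.044). It passed in 2 of 12 fits that left out a library, those without siCtrl replicate 3 at 24 h and without siCtrl replicate 1 at 72 h. With no filter on low counts Pex10 did not pass (adjusted p = 0.065 by edgeR). The other 25 genes did not pass, with values from -0.73 ± 0.25 (Pex14, adjusted p = 0.075 by edgeR) to 0.33 ± 0.17 (Hacl1). With the second entry of Pex14 added that value was -0.43 ± 0.20 (adjusted p = 0.17). The count depended on 1 library: without siCtrl replicate 3 at 24 h, 7 genes passed (Pex10, Pex14, Pex6, Pex16, Abcd3, Acaa1a and Amacr), while 1974 genes were lower and 1760 higher of the 14978 tested.

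Other genes of the same organelle were read from lists of 15 further biogenesis genes, 32 further genes of oxidation, 7 of ether lipid synthesis and 9 PPARs and their partners, of which 62 were in the table. At 72 h of knockdown, 6 of 14 tested biogenesis genes (42.9%), 8 of 22 oxidation genes (36.4%), 3 of 6 ether lipid genes (50%) and 2 of 6 PPAR genes (33.3%) fell, and the 1 gene of the lists that rose was Ppargc1a, a PPAR coactivator (log2 fold change 0.55 ± 0.14). Of all genes tested 8.94% fell at this time. At 24 h the falls were 1 of 14 (7.14%), 3 of 20 (15%), 0 of 5 and 1 of 5, against 4.38% of all genes. From 24 h to 72 h in siCtrl, 6 of 14, 11 of 22, 2 of 6 and 4 of 6 were called higher, against 22.7% of all genes. In the other direction 0 of 14, 3 of 22, 1 of 6 and 0 of 6 were called lower, against 20.4%.

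With the fold threshold, 2 of 14 further biogenesis genes, 4 of 22 oxidation genes, 1 of 6 ether lipid genes and 0 of 6 PPAR genes were called lower at 72 h, against 3.8% of all genes tested. Of the listed genes called at that time, the 5 with the smallest p are described here, and all 5 were lower. Acox2, the oxidase for bile acid intermediates and branched chains, was at 6.38, 6.63 and 6.99 FPKM in siCtrl and 3.17, 2.93 and 3.07 in siPRMT1 (log2 fold change -1.13 ± 0.10, adjusted p = 2.9e-06 by edgeR). Every siPRMT1 library was near or under 3.2 FPKM and every siCtrl library above 6. Pxmp4, a peroxisomal membrane protein, was at 59.9, 60.5 and 54.4 FPKM in siCtrl and 35.2, 39.0 and 39.0 in siPRMT1 (-0.63 ± 0.07, adjusted p = 3.3e-05 by edgeR). Crat, carnitine acetyltransferase of peroxisomes and mitochondria, was at 99.8, 110.3 and 102.9 FPKM in siCtrl and 62.2, 69.6 and 70.1 in siPRMT1 (-0.64 ± 0.07, adjusted p = 3.3e-05). Pex11g, a relative of Pex11a, fell by 0.62 ± 0.09 on the log2 scale, and Nudt12, a hydrolase of NADH, by 0.50 ± 0.10. Pparg, the receptor that drives fat cell formation, fell by 0.30 ± 0.06 at 72 h and by 0.52 ± 0.07 at 24 h.

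**Figure D4:**
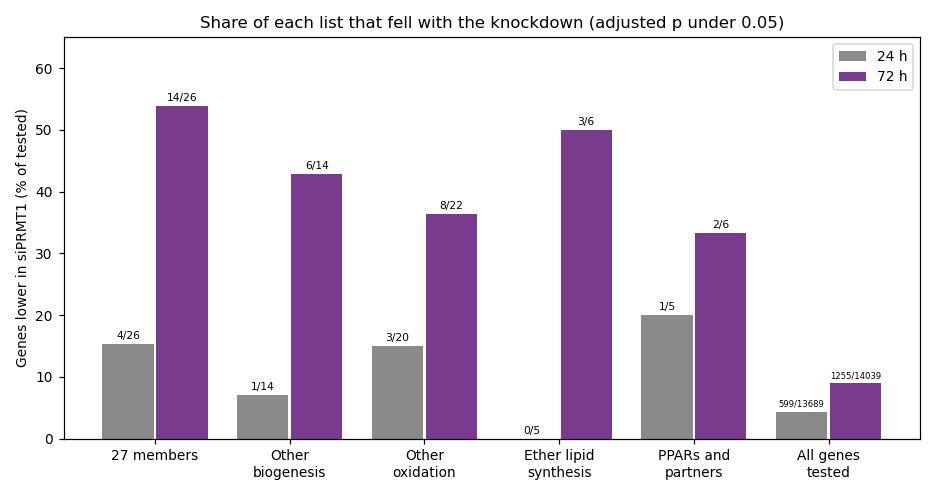
Share of tested genes that were lower in siPRMT1 at an adjusted p under 0.05 (vertical axis, percent, from 0) at 24 h (grey) and 72 h (purple) for the 27 genes, the 4 further lists and all genes tested, with counts above the bars. At 72 h the 27 genes reach 53.8% (14 of 26 tested) and all genes 8.94%. The genes and lists were chosen with earlier results of these data known.

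Some of these counts are uncertain. Most reads of Pex14 stood under a second entry of the same name, placed on a scaffold outside the chromosomes, and the entry analysed held 12.7% to 16.5% of the sum. With the entries added together Pex14 had a log2 fold change of -0.28 ± 0.08 at 72 h (adjusted p = 0.024 by edgeR) and of 1.58 ± 0.17 from 24 h to 72 h in siCtrl. Acaa1a has a near-identical copy, Acaa1b, at 4 to 39 reads a library against 1062 to 2514, and reads could be shared between them. Exons of Acox3 overlap those of an opposite-strand gene over 11.2% of its length, those of Pex3 overlap Adat2 over 10.1% and those of Pecr overlap D230017M19Rik over 9.44%, and the counting was not stated to use strand.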

How the data were processed

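Messenger RNA of 3T3-L1 cells was sequenced in 12 libraries. The submitters' processing notes name cutadapt 1.11, HISAT2 2.1.0, RSEM 1.2.6 and the build mm10, and the counting's use of strand is not given in the sources used here. The deposited count table holds whole-number read counts per gene, and the deposited FPKM table holds the same counts scaled to gene length and library total, and recomputing them gave values within 0.005. FPKM was used for levels only. Counts were tested with edgeR 4.0.16 (R 4.3.3), after filterByExpr and TMM scaling, by the quasi-likelihood test with Benjamini-Hochberg adjustment over all genes tested. Each comparison held only its 2 groups, and the interaction held all 12 libraries. Genes "rose" or "fell" at an adjusted p under 0.05 and were "called" with an absolute log2 fold change over 0.5 too, thresholds that the study states. The SE was taken from the F statistic, as |log2 fold change| over its root. The scripts were tested on simulated data. Alternatives were DESeq2 1.42.0, RLE scaling, other filters, no fold threshold, a single model of all libraries, a block for the replicate number and each library left out. Library totals alone and added Pex14 entries were chosen after seeing the data. All 27 genes are named. Values in every library were planned for genes called with the knockdown or in the interaction and for the 3 largest rises in siCtrl, and the 5 smallest p among called genes of the further lists at 72 h were named. Members, lists and markers were chosen with earlier results of these data known. Reads numbered 15116462 to 42357137 a library, and no 2 libraries of the same group agreed within sampling noise. Libraries of different groups were not compared in this way. Promoters and positions are from RefSeq (GRCm38.p6).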

Additional observations from a re-analysis of the deposited data

Results flagged for a closer look

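For 1 of the 27 genes and 7 genes of the further lists, the knockdown effect at 72 h differed from that at 24 h in the interaction test (edgeR's quasi-likelihood test, Benjamini-Hochberg adjusted p under 0.05, 3 libraries in each of 4 groups). These were 1 of 26 tested (3.85%), and 5 of 24 oxidation, 2 of 6 ether lipid, 0 of 14 biogenesis and 0 of 6 PPAR genes, where 12.3% of all 14612 genes tested passed. In Pex10 the log2 difference, 72 h minus 24 h, was -0.52 (adjusted p = 0.044), with siPRMT1 above siCtrl at 24 h and below it at 72 h in all libraries. The difference was -2.29 for Acox2 (adjusted p = 0.0022), which had 1 to 11 reads a library at 24 h and 198 to 483 at 72 h, so that its early effect is poorly measured. It was -0.49 for Crat (adjusted p = 0.041) and -0.33 for Gnpat, the acyltransferase that starts ether lipid synthesis (adjusted p = 0.034). In the other direction it was 0.70 for Crot, carnitine octanoyltransferase (adjusted p = 0.0032), 0.44 for Idh1, the cytosolic and peroxisomal isocitrate dehydrogenase (adjusted p = 0.011), 0.35 for Slc25a17, a peroxisomal cofactor carrier (adjusted p = 0.034), and 0.62 for Agps, the next enzyme of ether lipid synthesis after Gnpat (adjusted p = 0.025). Gnpat was at 75.2, 74.7 and 80.2 FPKM in siCtrl and 57.7, 57.6 and 57.4 in siPRMT1 at 72 h, while Agps was at 13.95, 12.1 and 13.6 and at 17.6, 15.2 and 14.2. The enzymes of these neighbouring steps thus lay on opposite sides of the control at 72 h, although only the fall of Gnpat passed there.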

How the results depend on the processing

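No log2 fold change that passed in the comparisons was reversed under any alternative. Of 831 values of single genes, Prmt1 included, 88 no longer passed. Of the 471 of these outside the fits that left out a library, 18 no longer passed, so most losses came from leaving out a library. At 24 h the number of the 27 genes that fell was 4, and it was 8 with DESeq2, 10 with all 12 libraries in 1 model and 1 with library totals alone, fits in which 6.59%, 8.1% and 2.69% of all genes fell, against 4.38%. Leaving out 1 library gave 0 (without siCtrl replicate 2 or any siPRMT1 library) to 10 (without siCtrl replicate 3), with 2 without siCtrl replicate 1, and 0 to 1 that rose. The gene called lower at 24 h became 0 with library totals alone, 0 to 1 on leaving out a library and 4 with no fold threshold. At 72 h the 14 that fell became 6 (without siPRMT1 replicate 2) to 13 on leaving out a library. The 0 called lower became 1 without siCtrl replicate 3 or siPRMT1 replicate 2, and 14 with no fold threshold. From 24 h to 72 h in siPRMT1, 0 called lower became 1 with no fold threshold. The interaction count of 1 became 0 to 7 on leaving out a library, with 7 of 26 without siCtrl replicate 3 at 24 h, where 1974 genes were lower and 1760 higher of all 14978 tested.

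With the replicate block the interaction count was 2 (Pex10 and Pex14), and no other count of the 27 genes moved by over 1.5 times. Same-numbered libraries correlated at -0.178 to 0.232 in their deviations from the group means, and not each of them correlated best with its own number, so the numbers were not taken to pair the libraries.

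Over all genes, library totals alone changed the split of falls and rises at 24 h from 599 and 441 to 368 and 540 (called, 220 and 267 to 148 and 323), and that of the interaction from 676 and 1123 to 1002 and 802 (called, 507 and 697 to 702 and 512). At 24 h 1183 genes fell with all 12 libraries in 1 model, 2086 without siCtrl replicate 3 and 70 without siPRMT1 replicate 3. Counts below about 20 reads a library limit Ehhadh and Acox2 at 24 h.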
